A study of Mus musculus with 8 samples.

Results

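The 10 genes described here are inhibitors of the Wnt pathway, most of which are themselves switched on by Wnt signalling: Axin2, Rnf43, Znrf3, Nkd1, Notum, Wif1, Dkk2, Dkk3, Apcdd1 and Sfrp5. They were chosen by name, as the genes to which the RefSeq accession of an array probe leads, and 12 probes were found for them. All 10 were among the 21303 genes tested, each through the brightest of its probes. The arrays measured RNA of small intestine, and all mice were C57BL/6J Min/+, so the control mice carry the mutant Apc allele too and no wild-type mice served as a baseline. The 4 groups of 2 arrays were Western male, Western female, Control male and Control female. The Western diet was an AIN-93G formula changed to hold more fat and less fibre, vitamin D, calcium and folate, in which milk gave 66.4% of the fat and oils of rapeseed and sunflower gave 33.6%, and the control diet was the unmodified formula. The labels give 18 months of feeding, which was not checked. Each array holds RNA of 1 to 3 mice, and nothing in the labels says that the arrays of a group hold different mice, so the spread between arrays may be partly technical.

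In the absence of a Wnt ligand, a destruction complex built on Apc and Axin proteins marks beta-catenin for degradation. A ligand bound to Frizzled and Lrp receptors stops the complex, beta-catenin enters the nucleus, and with TCF/LEF factors it activates target genes that keep intestinal crypt cells dividing. Among those targets are brakes on the pathway itself, and in Apc-mutant adenomas, where beta-catenin escapes degradation, several of these brakes are known to be strongly expressed. The brakes act at different steps: Axin2 in the destruction complex, Rnf43 and Znrf3 on the receptors, Nkd1 on Dishevelled, and Notum, Wif1, Sfrp5 and the Dickkopf proteins outside the cell.

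Promoter windows from the RefSeq sequence table (build GRCm38.p6), running from 250 bases before to 50 after an annotated start, were searched for 6 of the genes. No window was held for Znrf3, Notum and Dkk3. Apcdd1 was left out of the search, so the motif counts below do not cover it. Windows are shown for Axin2, the reference target gene of the pathway, and for Nkd1, Wif1 and Dkk2, which shared their highest array. The windows are Axin2 chr11:108920099-108920398, Nkd1 chr8:88527383-88527682, Wif1 chr10:121033754-121034053 and Dkk2 chr3:132085042-132085341, all on the plus strand. Those of Axin2 and Nkd1 lie inside the annotated gene, past its first base. Capitals mark CTTTG or CAAAG, the core letters that TCF/LEF factors bind.
Axin2: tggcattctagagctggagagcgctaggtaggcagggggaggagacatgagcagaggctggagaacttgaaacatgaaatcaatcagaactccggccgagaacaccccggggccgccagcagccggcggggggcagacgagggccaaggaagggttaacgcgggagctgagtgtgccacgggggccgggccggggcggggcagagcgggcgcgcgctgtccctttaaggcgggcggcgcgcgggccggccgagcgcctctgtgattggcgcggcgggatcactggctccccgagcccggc
Nkd1: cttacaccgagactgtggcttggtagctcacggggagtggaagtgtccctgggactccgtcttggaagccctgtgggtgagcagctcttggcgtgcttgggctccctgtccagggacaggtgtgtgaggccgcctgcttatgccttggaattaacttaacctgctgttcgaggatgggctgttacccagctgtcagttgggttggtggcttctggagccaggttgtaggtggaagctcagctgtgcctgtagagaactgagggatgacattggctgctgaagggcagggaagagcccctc
Wif1: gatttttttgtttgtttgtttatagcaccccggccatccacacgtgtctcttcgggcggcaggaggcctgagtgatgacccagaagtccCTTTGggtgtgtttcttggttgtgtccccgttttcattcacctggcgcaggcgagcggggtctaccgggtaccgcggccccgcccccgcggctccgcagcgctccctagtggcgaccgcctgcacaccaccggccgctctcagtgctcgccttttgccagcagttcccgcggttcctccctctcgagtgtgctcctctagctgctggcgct
Dkk2: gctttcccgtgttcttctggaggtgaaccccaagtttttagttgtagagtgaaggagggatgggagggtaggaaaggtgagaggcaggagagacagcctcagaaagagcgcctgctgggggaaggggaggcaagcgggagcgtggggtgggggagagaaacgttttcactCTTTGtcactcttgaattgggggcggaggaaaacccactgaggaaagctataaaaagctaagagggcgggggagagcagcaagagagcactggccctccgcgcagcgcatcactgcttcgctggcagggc
The only 6-letter TCF/LEF form searched was CTTTGA, or TCAAAG on the other strand. It was in 0 of the 7 windows searched, those of Axin2, Rnf43 (2 starts), Nkd1, Wif1, Dkk2 and Sfrp5. Of all 32851 windows of that length, 16.0% held it. The 5-letter core CTTTG, contained in that form, was searched after the longer form gave none. It was in 2 of the 7 windows, those of Wif1 and Dkk2, and in 53.9% of all windows on either strand. The letter after the core is T in the Dkk2 window and G in that of Wif1. The Axin2 window was 70.0% G and C with 31 CpG, against a median of 52.7% and 7 CpG over all windows. Wif1 had 63.0% and 25 CpG, Dkk2 57.7% and 11 CpG, and Nkd1 58.3% and 6 CpG. These counts describe the letters of the windows and show no site in use.

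Each value is a normalised log2 signal, the processed spot signal in log2 less the array's own 75th percentile, so 0 is the signal of a probe at that percentile, and levels are compared between arrays but not between probes. The 75th percentile itself lay between 488.2 and 907.1 signal units. The scanner software marked 55.11% to 61.89% of probes as well above background on 7 arrays, and 75.63% on Control female 2, which also stood apart on the first principal component (146.3, other arrays -33.44 to 2.086, 43.4% of the variance). The library labelled Control female 1 carried the Y-linked transcripts Ddx3y (-0.46), Eif2s3y (1.90) and Uty (-2.71) as strongly as the male arrays did, where Ddx3y measured -1.05 to -0.68. The other 3 female arrays measured -7.57 to -6.91 for Ddx3y, not well above background. Its deposited file also bears the mark of the Western files in its name, while its labels say control diet. It was kept in its labelled group, and the inhibitors' differences that it moves most are given with and without it. Without it, the only Control female array is Control female 2, which stood apart as given above. All 9 epithelial markers were well above background on all 8 arrays, and so were 6 of 9 smooth muscle and 6 of 9 fibroblast markers, so the RNA is of whole tissue and not of epithelium alone. In such RNA, fewer cells of a type and less RNA per cell cannot be told apart.

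The first question in the series design is whether the Western diet changes expression. By limma with Benjamini-Hochberg adjustment over all genes, 0 of 10 passed an adjusted p of 0.05, where 0% of the 21303 genes did (smallest adjusted p over all genes 0.1176). At an unadjusted p under 0.05 the count was 0 of 10, against 4.35% of all genes (0.629% higher and 3.72% lower). Of the 10, 6 had a difference above 0, against 39.8% of all genes, and their median was 0.12, against -0.061 over all genes. No inhibitor had all 4 Western arrays above or all below the 4 control arrays, while 0.826% of all genes had them all above and 2.35% all below. Of the 927 genes with an unadjusted p under 0.05, 14.46% were higher on the Western diet, against 60.34% of 759 after quantile normalization, which moved the median of all genes to 0.047. Without the library labelled Control female 1, the diet difference was 0.35 for Axin2, 0.25 for Rnf43, 0.58 for Nkd1, 0.64 for Wif1 and 0.29 for Apcdd1. It was then 0.078 for Dkk2, 0.056 for Dkk3, -0.007 for Sfrp5 and -0.012 for Notum, and that of Znrf3 is given with its values.

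**Figure D1:**
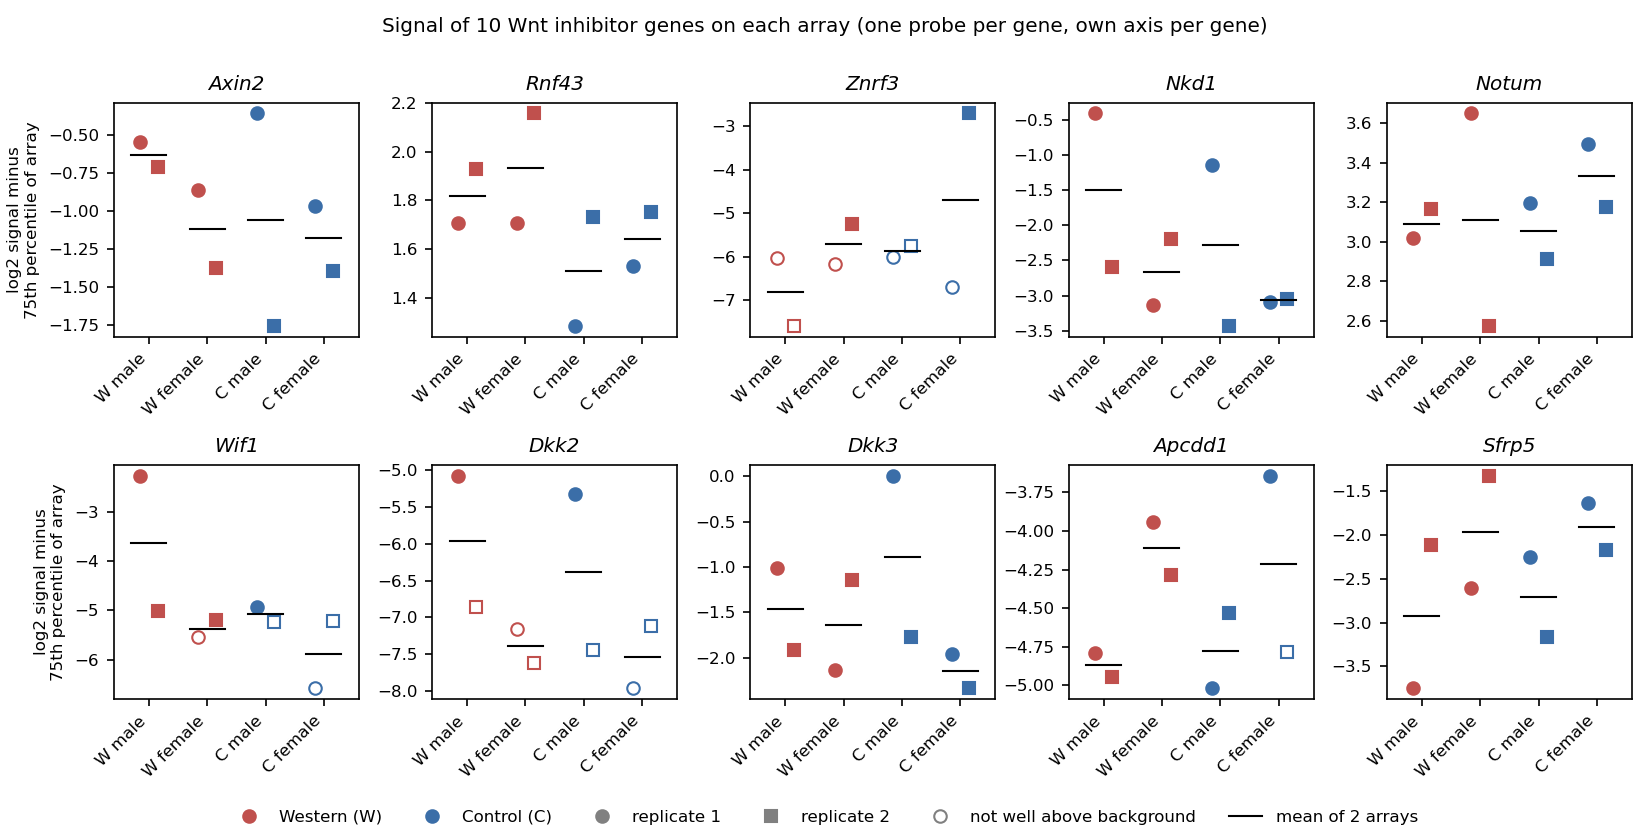
Normalised log2 signal (vertical axis, relative to each array's 75th percentile, own scale per gene) of the tested probe of each of the 10 genes on the 8 arrays, by group (W, Western, red; C, control, blue). Circles are replicate 1 and squares replicate 2, open symbols are arrays where the probe was not well above background, and bars are means of 2 arrays; Western and control points overlap for every gene, and Wif1 stands at -2.27 on Western male 1 with all other arrays at -4.93 or below.

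Axin2, the inducible scaffold of the destruction complex and the usual readout of beta-catenin activity, measured -0.55 and -0.71 on the Western male arrays and -0.87 and -1.38 on the Western female arrays. It measured -0.36 and -1.76 on the Control male arrays and -0.97 and -1.40 on the Control female arrays. The highest and the lowest of the 8 values were thus both from control males, and the diets overlapped fully. The mean was -0.88 ± 0.36 on the Western diet and -1.12 ± 0.60 on the control diet (SD, n = 4 arrays each), a log2 difference of 0.24 ± 0.34 (SE; 1.19-fold; limma adjusted p = 0.999, 95% interval -0.59 to 1.08). The estimate was 0.59 without Control male 1 and -0.10 without Control male 2, and -0.044 within slide 1 and 0.020 within slide 3. Here and below, the diet difference within slide 3 is a single array against another, Western female 2 minus Control female 2. The control side of slide 1 includes the library labelled Control female 1.

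A second Axin2 probe, dimmer but well above background on all 8 arrays, ordered the arrays differently. It measured -3.93 and -4.69 on the Western male arrays, -4.61 and -4.71 on the Western female arrays, -4.11 and -4.80 on the Control male arrays, and -4.97 and -3.51 on the Control female arrays. Control female 2 was highest by this probe and among the 3 lowest by the brighter one. Over the 8 arrays, which both probes share, Pearson's r between them was 0.20, and averaging them brought the diet difference to 0.053. Both probes carry the same RefSeq accession, and which of them follows Axin2 RNA more closely was not tested.

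**Figure D2:**
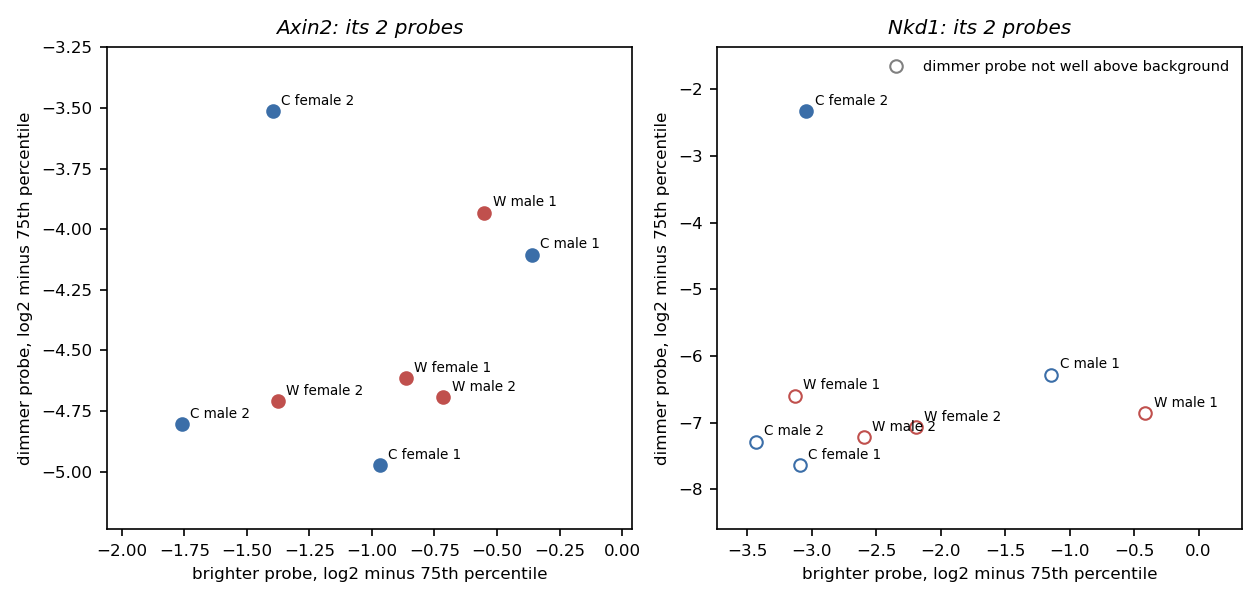
The 2 probes of Axin2 (left) and of Nkd1 (right), dimmer probe on the vertical axis against brighter probe on the horizontal axis, both as normalised log2 signal, 1 point per array (red Western, blue control; open where the dimmer probe was not well above background). Control female 2 is highest on both dimmer probes, at -3.51 for Axin2 and -2.32 for Nkd1.

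Rnf43 and Znrf3 are membrane ubiquitin ligases that remove Frizzled receptors from the cell surface and are held back by R-spondins bound to Lgr receptors. Rnf43 measured 1.71 and 1.93 on the Western male arrays and 1.71 and 2.16 on the Western female arrays, against 1.29 and 1.73 on the Control male arrays and 1.53 and 1.75 on the Control female arrays. The lowest 2 values were from control arrays and the highest 2 from Western arrays, with the other 4, 2 from each diet, between 1.71 and 1.75. Its mean was 1.88 ± 0.21 on the Western diet and 1.58 ± 0.22 on the control diet (SD, n = 4 each). The log2 difference was 0.30 ± 0.19 (SE; 1.23-fold; unadjusted p = 0.166, limma adjusted p = 0.994, 95% interval -0.17 to 0.77). It was 0.31 within males and 0.29 within females, 0.30 within slide 1 and 0.41 within slide 3, where each diet has a single female array. These splits reuse the same 8 arrays. The difference stayed between 0.19 and 0.41 under all 19 alternatives run, none of which brought it past the threshold. Among the 10 genes Rnf43 varied least over the 8 arrays, with an SD above that of 36.14% of the genes tested.

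Znrf3 was well above background on Western female 2 (-5.25) and Control female 2 (-2.70) and on no other array. The signal was 75.01 units on Control female 2 and 3.118 to 17.24 units on the other 7. The diet difference of -0.97 ± 0.90 (SE, adjusted p = 0.994) was -1.97 once the library labelled Control female 1 was left out (limma adjusted p = 0.135) and 0.028 without Control female 2. The female arrays averaged -5.20 and the male arrays, none of which was well above background, -6.34. That difference of 1.14 (limma adjusted p = 0.903) rested on Control female 2 and was 0.14 without it, so no fold is given.

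Nkd1, which binds Dishevelled inside the cell and damps the signal there, had its 2 highest values on the first array of each male group. It measured -0.41 and -2.60 on the Western male arrays and -3.13 and -2.19 on the Western female arrays, against -1.14 and -3.43 on the Control male arrays and -3.10 and -3.04 on the Control female arrays. The other 6 arrays lay between -3.43 and -2.19. The diet difference was 0.59 ± 0.69 (SE; 1.51-fold; adjusted p = 0.994), and it was 0.049 without Western male 1, 0.022 without Control male 2 and 1.17 without Control male 1. The second Nkd1 probe was well above background on 1 array, Control female 2, where it measured -2.32 against -7.64 to -6.28 on the others.

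Notum, a secreted esterase that strips the lipid from Wnt ligands, was well above background on all 8 arrays, with a signal between 3904 and 8005 units. It measured 3.02 and 3.16 on the Western male arrays and 3.65 and 2.58 on the Western female arrays, against 3.20 and 2.91 on the Control male arrays and 3.50 and 3.18 on the Control female arrays. Both the highest and the lowest value belonged to Western females. The mean was 3.102 ± 0.44 on the Western and 3.20 ± 0.24 on the control diet (SD, n = 4 each), and the difference of -0.092 ± 0.27 (SE, adjusted p = 0.999) had a 95% interval of -0.75 to 0.56.

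Wif1, a secreted protein that binds Wnt ligands, had a signal of 188.7 units on Western male 1 and 6.573 to 23.63 units on the other 7 arrays. In normalised log2 signal it measured -2.27 and -5.02 on the Western male arrays, -5.54 and -5.20 on the Western female arrays, -4.93 and -5.23 on the Control male arrays, and -6.57 and -5.21 on the Control female arrays. It was well above background on Western male 1, Western male 2, Western female 2 and Control male 1. One array, Western male 1, therefore stood 3.12 above the mean of the other 7. The diet difference of 0.98 ± 0.65 (SE; unadjusted p = 0.180, limma adjusted p = 0.994) has no fold here, since only 1 of the 4 control arrays was well above background. It was 0.29 without Western male 1, and -0.051 without that array and the library labelled Control female 1. It was 1.85 within slide 1, which holds the highest and the lowest Wif1 array, Western male 1 and the library labelled Control female 1. It was 0.009 within slide 3.

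Sfrp5, a secreted protein with a Frizzled-like ligand-binding domain, went the other way on Western male 1, which was its lowest array at -3.75. It measured -2.11 on Western male 2 and -2.60 and -1.32 on the Western female arrays, against -2.25 and -3.16 on the Control male arrays and -1.64 and -2.17 on the Control female arrays. The diet difference was -0.14 ± 0.49 (SE, adjusted p = 0.999). It was -1.23 within slide 1 and 0.85 within slide 3, and 0.27 without Western male 1.

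The Dickkopf proteins are secreted; Dkk2 binds Lrp co-receptors, and Dkk3 is a divergent member whose effect on Wnt signalling varies between cell types. Dkk2 was well above background on Western male 1 (-5.08, 26.89 signal units) and Control male 1 (-5.32, 18.01 units). The other 6 arrays gave 2.516 to 5.177 units and measured -7.96 to -6.86. Its diet difference was 0.29 ± 0.61 (SE, adjusted p = 0.999), and -0.16 without Western male 1. Dkk3 was well above background on all 8 arrays. It measured -1.01 and -1.92 on the Western male arrays and -2.14 and -1.15 on the Western female arrays, against 0.008 and -1.78 on the Control male arrays and -1.96 and -2.34 on the Control female arrays. Control male 1 was its highest array. The Dkk3 group means differed by -0.58 between the diets in males and by 0.51 in females, and averaged over the sexes by -0.037 ± 0.48 (SE, adjusted p = 0.999).

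Apcdd1, a membrane protein that binds Wnt ligands and Lrp5, was well above background on 7 arrays, all but Control female 2. It measured -4.79 and -4.94 on the Western male arrays and -3.94 and -4.28 on the Western female arrays, against -5.02 and -4.53 on the Control male arrays and -3.64 and -4.78 on the Control female arrays. The diet difference was 0.004 ± 0.29 (SE, adjusted p = 0.999, 95% interval -0.71 to 0.72), and leaving out 1 array moved it between -0.28 and 0.29.

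**Figure D3:**
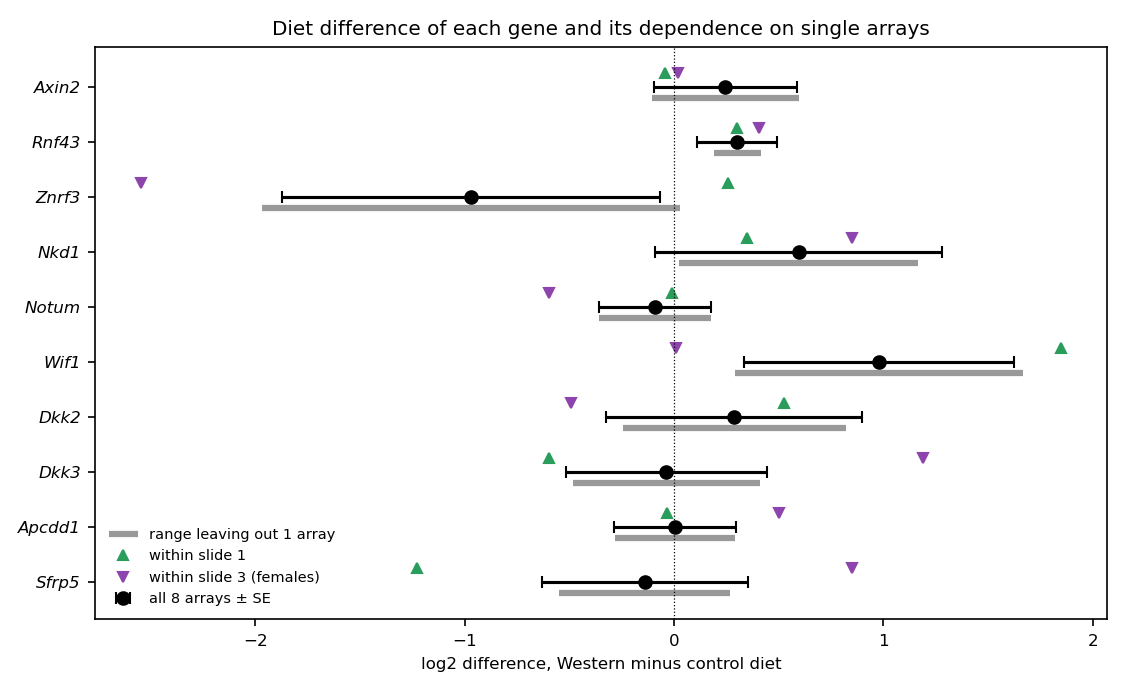
Diet difference of each gene (horizontal axis, log2, Western minus control; dotted line at 0): black points are the estimate from all 8 arrays with its SE, grey bars the range when 1 array at a time was left out, and triangles the difference within slide 1 (upward) and within slide 3 (downward, females). The grey bar of Rnf43 runs from 0.19 to 0.41, those of Nkd1 and Wif1 lie above 0, and the other 7 cross 0.

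The 10 genes did not share one order of the arrays. Western male 1 was the highest array for Nkd1, Wif1 and Dkk2, and among the highest 2 for 5 of the genes. Control male 1 was highest for Axin2 and Dkk3, and among the highest 2 for 5. Western female 2 was highest for Rnf43 and Sfrp5. Over the 8 arrays, Pearson's r with Axin2 was 0.72 for Dkk2, 0.69 for Nkd1, 0.53 for Dkk3, 0.40 for Notum and 0.36 for Wif1. It was -0.13 for Sfrp5, -0.26 for Apcdd1, -0.49 for Rnf43 and -0.49 for Znrf3. These values describe 8 arrays that all genes share, 1 or 2 of which stand out for several genes, and Znrf3, Wif1 and Dkk2 were well above background on only 2, 4 and 2 of them. The SD over the arrays exceeded that of 90.15% to 95.69% of genes for Znrf3, Wif1, Nkd1 and Dkk2, of 66.39% to 82.75% for Axin2, Apcdd1, Dkk3 and Sfrp5, and of 50.6% for Notum.

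Markers of other cell types moved with some of these arrays. On Control male 1, which was the highest array for Dkk3 (1.76 above the mean of the other 7) and second for Nkd1 (1.42) and Dkk2 (1.71), the 9 smooth muscle markers averaged 3.07 above their own mean over the arrays, against -1.31 to 0.24 on the other arrays. The 8 tested fibroblast markers averaged 2.31 there, against -0.90 to 0.47 elsewhere, and 1 of the 9, Dpt, was not tested. Control male 1 was also the highest array for Axin2 (0.73 above the mean of the other 7). It was the lowest array for Rnf43 (-0.50 from the mean of the other 7) and Apcdd1 (-0.60). On Western male 1, the highest array for Wif1, Nkd1 (2.25 above the mean of the other 7) and Dkk2 (1.99), the fibroblast markers averaged 0.47, the smooth muscle markers -0.34, the crypt stem cell markers 0.036 and the Paneth cell markers -0.22. On Western female 2, the highest array for Rnf43 and Sfrp5, the 3 tested fat cell markers averaged 5.75. The crypt stem cell markers (0.52), a list that holds Rnf43 and Axin2 themselves, and the Paneth cell markers (0.47) also had their highest mean deviation there. The mean of the 9 epithelial markers stayed between -0.18 and 0.14 on all 8 arrays. The part of these tissue differences in the inhibitors' values was not tested.

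**Figure D4:**
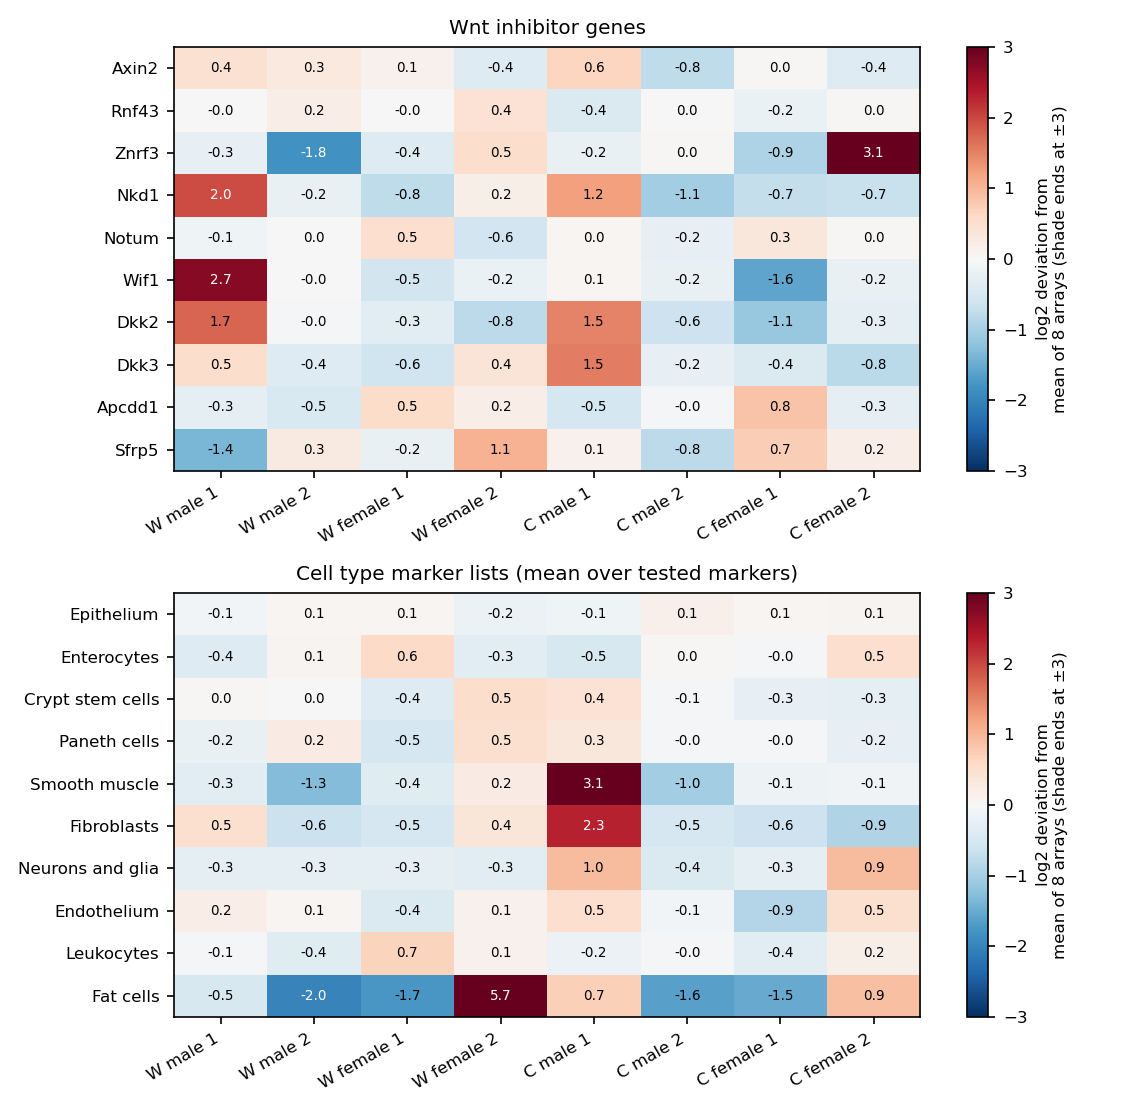
Deviation of each of the 10 genes (top) and of 10 cell type marker lists (bottom, mean over the tested markers) from its own mean over the 8 arrays, in log2, 1 column per array (W, Western; C, control), with shades ending at 3 and -3. Wif1 stands out on Western male 1 and Znrf3 on Control female 2, while the smooth muscle (3.07) and fibroblast (2.31) markers stand out on Control male 1 and the fat cell markers (5.75) on Western female 2.

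The second question in the design is how females differ from males. Averaged over the diets, 0 of 10 inhibitors passed an adjusted p of 0.05 by limma, where 0% of the genes did (smallest 0.5717), and 0 of 10 had an unadjusted p under 0.05, against 3.87% of all genes (2.69% higher and 1.17% lower). Of the 10, 5 had a female minus male difference above 0, against 62.4% of all genes, with a median of -0.091 against 0.076. No inhibitor separated the sexes fully, while 2.01% of genes had all female arrays above and 1.02% all below the male arrays. The smallest unadjusted p belonged to Apcdd1, which averaged -4.16 ± 0.49 in females and -4.82 ± 0.22 in males (SD, n = 4 each). The difference was 0.66 ± 0.29 (SE; 1.58-fold; unadjusted p = 0.0656, limma adjusted p = 0.903). Over the alternatives run, this difference lay between 0.03, by quantile normalization, and 0.94, so its size depended on the processing. It was 0.37 without the library labelled Control female 1, the array with the highest Apcdd1 value. It was -0.25 within the control arrays of slide 3, where each sex has a single array. Dkk2 differed by -1.29 ± 0.61, with no array of the 4 females well above background, and no fold is given. By normexp background correction, an alternative listed below, the Dkk2 difference was -0.135. Wif1 differed by -1.27 ± 0.65 and Nkd1 by -0.97 ± 0.69 (SE, adjusted p = 0.903 for both). Within slide 1, which holds both Western male 1 and Control male 1, the female minus male differences of Dkk2, Wif1 and Nkd1 were -2.36, -2.46 and -2.34. The female side of slide 1 includes the library labelled Control female 1, with its Y-linked transcripts. Within the control arrays of slide 3 the 3 differences were 0.32, 0.017 and 0.39. Over all slides without the library labelled Control female 1 they were -1.08, -0.93 and -0.96. Without that library and Western male 1, the Wif1 difference was -0.24. Sfrp5 averaged -1.93 ± 0.57 in females and -2.82 ± 0.77 in males (SD, n = 4 each), a difference of 0.88 ± 0.49 (SE, adjusted p = 0.903) that was 0.88 within slide 1 and 0.99 within the control arrays of slide 3. It was 0.47 without Western male 1, the lowest array for Sfrp5, and 0.56 without Western female 2, the highest. Without the library labelled Control female 1 it was 0.75.

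Without the library labelled Control female 1, 3 genes passed for sex, all Y-linked (Ddx3y -6.34, adjusted p = 0.00271; Eif2s3y -8.62 and Uty -3.22, adjusted p = 0.0253 by limma), and 0 of the 10 inhibitors did. The largest sex difference among the 10 was then that of Znrf3, 2.13 (adjusted p = 0.137).

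Whether the diet acted differently in the sexes was tested as the difference of the diet effects, females minus males. By limma 0 of 10 inhibitors passed, where 0% of genes did (smallest adjusted p 0.4726), and 0 of 10 had an unadjusted p under 0.05, against 1.62% of all genes (0.465% higher and 1.15% lower). Of the 10, 3 had a value above 0, against 35.4% of all genes, and the median was -0.16, against -0.13. Dkk3 had the largest value, 1.09 ± 0.96 (SE, unadjusted p = 0.30, limma adjusted p = 1), which was 0.19 without Control male 1 and 1.98 without Control male 2. The 95% intervals were wide, from -0.95 to 0.92 for Rnf43 to -4.49 to 4.36 for Znrf3. Without the library labelled Control female 1, Control female 2, which stood apart from the other arrays, is alone in its group. Krt6a (-7.75) and Gm5476 (-6.30) passed this test in that setting, and no inhibitor did.

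The rest of the pathway gives the setting. Of 87 other Wnt genes tested from 7 lists, 0 passed an adjusted p of 0.05 for the diet by limma (lowest 0.708), 5 had an unadjusted p under 0.05, all 5 lower on the Western diet, and 30 had a difference above 0, with a median of -0.14. Those 5 are 5.75% of the 87, against 4.35% of all genes (3.72% lower), and the 30 are 34.5%, against 39.8%, so these counts are given as a description only. The 5 were Wnt4, Wnt8b, Wnt9b, Fzd7 and Bcl9, of which Wnt8b and Wnt9b were named after their values were seen. Control female 2, which stood apart from the other arrays, was highest for Wnt4 (-3.23), Wnt8b (-3.06), Fzd7 (-1.71) and Bcl9 (-3.39). The library labelled Control female 1 was highest for Wnt9b (-4.87). How far these arrays carry the 5 differences was not tested. Of the Wnt ligands 13 of 19 were tested and 4 were above 0 (median -0.31). Wnt4 differed by -1.25 ± 0.25 (unadjusted p = 0.00234, adjusted p = 0.708) and Wnt10a, well above background on 3 of 8 arrays, by 0.95 ± 0.57 (SE). Wnt8b and Wnt9b were well above background on 2 control arrays each and on 0 Western arrays. Wnt8b differed by -1.65 ± 0.52 and Wnt9b by -0.89 ± 0.25 (SE, limma adjusted p = 0.994 for both), and no fold is given for either. Of the R-spondins and the ligand secretion genes 4 of 6 were tested and 0 were above 0 (median -0.35), with Rspo3, a stromal ligand of the Lgr receptors that was well above background on 3 of 8 arrays, at -1.47 ± 1.13.

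Of the receptor genes 15 of 18 were tested and 5 were above 0 (median -0.20). Fzd7 differed by -0.49 ± 0.19 (unadjusted p = 0.0410, adjusted p = 0.994), Lgr4 by 0.30 ± 0.17 and the stem cell receptor Lgr5 by -0.16 ± 0.46. All 17 genes of the relay and destruction complex were tested and 5 were above 0 (median -0.078), with Dvl3 at -0.47 ± 0.20, Csnk1e at 0.30 ± 0.19, Apc at -0.37 ± 0.48 and the beta-catenin gene Ctnnb1 at 0.052 ± 0.16. Of the nuclear factors 9 of 12 were tested and 4 were above 0 (median -0.22), with the beta-catenin co-activator Bcl9 at -1.01 ± 0.36 (unadjusted p = 0.0303, adjusted p = 0.994), Tle4 at 0.21 ± 0.14, Tcf7 at 0.15 ± 0.20 and Lef1 at -0.22 ± 0.77. Bcl9 was well above background on 5 of 8 arrays and Lef1 on 3. Of the other Wnt inhibitors 15 of 20 were tested and 3 were above 0 (median -0.28), with Dact3 at -1.15 ± 0.54 (SE). Sost was well above background on 2 Western and 0 control arrays, and no fold is given.

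The other Wnt target genes, 17 of 19 tested, had 10 above 0 and a median of 0.046, and they share Lgr5, Tcf7 and Lef1 with the lists above. The crypt stem cell regulators Lgr5 and Ascl2 differed by -0.16 ± 0.46 and -0.090 ± 0.22, the progenitor factors Sox9 and Myc by 0.25 ± 0.24 and 0.19 ± 0.31, and Ccnd1, Cd44 and Ephb2 by -0.14 ± 0.23, 0.15 ± 0.21 and -0.14 ± 0.15. Rgmb, well above background on 5 of 8 arrays, had the smallest p among those above 0, at 0.60 ± 0.44 (SE, adjusted p = 0.994).

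**Figure D5:**
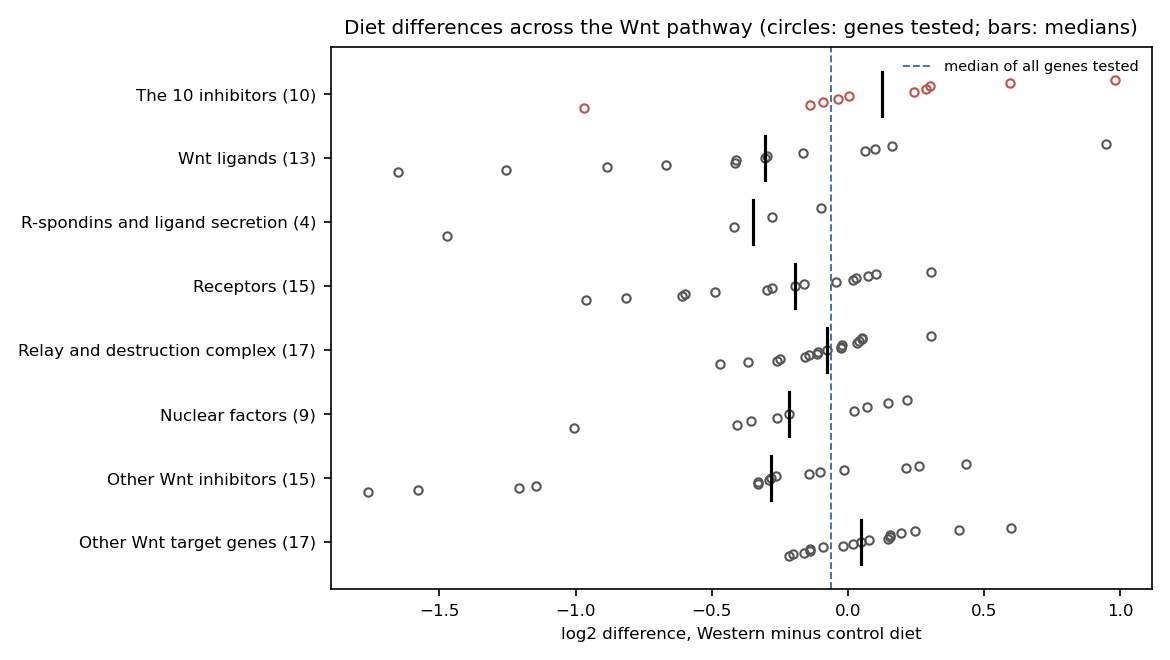
Diet difference (horizontal axis, log2, Western minus control) of each tested gene of the 10 inhibitors (red) and of 7 other Wnt lists (grey), with the number tested in brackets. Bars are list medians (0.12 for the inhibitors, 0.046 for the other target genes, -0.35 to -0.078 for the remaining lists), and the dashed line is the median of all genes tested, -0.061.

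Among 12392 genes with a symbol that were well above background on all 8 arrays, some followed the brighter Axin2 probe most closely. They were Poc1b (Pearson's r = 0.98), R3hdm1 (0.96), Ppargc1b (0.95), Fcrls (0.95) and Tmem92 (0.95). They are the highest values picked from 12392 over only 8 arrays, and whether so high an r arises by chance was not tested. The second Axin2 probe had an r of 0.20 with the brighter one. Poc1b measured -0.51 and -0.76 on the Western male arrays, -1.06 and -1.79 on the Western female arrays, -0.30 and -1.94 on the Control male arrays, and -0.93 and -1.54 on the Control female arrays.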

How the data were processed

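The 8 deposited files were each the output of 1 single-colour Agilent array (Cy3). Per the file headers, the design was 026655 and the software Feature Extraction 10.7.3.1. The values used were the processed signal of each spot, a linear intensity already background-subtracted by that software, per the file headers; no step between arrays is recorded there. Per the labels' protocols, the RNeasy Mini kit was used to extract total RNA.

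The 1377 control spots and the outlier spots (94 to 216 per array) were left out, and no spot was saturated. Values were log2 intensity minus each array's 75th percentile. Probe accessions, taken without versions, were named through RefSeq genes of GRCm38.p6 (26412 of 39429 probes), and since the file headers name mm9, no probe coordinates are given. A gene was tested through its brightest probe among those that 2 or more arrays had well above background. limma 3.58.1 in R 4.3.3 (with the packages jsonlite 2.0.0 and data.table, version 1.17.8) fitted 4 group means over all 8 arrays (4 residual and 2.009 prior degrees of freedom), with Benjamini-Hochberg adjustment over all 21303 genes. The number of arrays limits the precision. Pathway genes other than the 10 were named by the smallest diet p in each direction per list, plus a set of well-known genes. The members and lists were chosen with earlier results of these data known. Slide 1 held replicate 1 of every group, slide 2 Western male 2, and slide 3 the other 3 arrays. Same-numbered arrays of different groups correlated in their deviations by -0.119 to 0.352, over 0.1 in 2 of 6 pairs, so the numbers were not taken as pairs. Alternatives were normexp background correction (offset 50, on median spot signals, since mean signals were not used here), quantile normalization, filters, probe averaging, slide, scan day and replicate blocks, and leaving out arrays.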

Additional observations from a re-analysis of the deposited data

Results flagged for a closer look

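Of 40 groups of 4 arrays tested (10 genes by diet and by sex), 5 held a highest or lowest array whose gap to its neighbour exceeded Dixon's 95% critical value, where chance flags about 1 in 20 groups. The groups share the same arrays, and each gene entered both by diet and by sex. They are therefore not independent, and that rate is only a rough guide. Wif1 on Western male 1, at -2.265, lay far above the next Western array (-5.016; gap 0.84 of the range) and far above the next male array (-4.928; gap 0.90 of the range). Nkd1 on Control male 1, at -1.143, lay above the other control arrays, the next at -3.043. Nkd1 on Western female 2, at -2.194, lay above the other female arrays, the next also at -3.043. Znrf3 on Western male 2, at -7.587, lay below the other male arrays, the next at -6.023, and was not well above background on any of them.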

How the results depend on the processing

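All 10 inhibitors stayed short of an adjusted p of 0.05 under every alternative run, with 186 values for the diet (27 of opposite sign, lowest adjusted p 0.135 for Znrf3), 166 for sex (2 of opposite sign, lowest 0.137) and 166 for the difference of the diet effects (34 of opposite sign, lowest 0.585). The cause of each reversal was not tested. For the diet, normexp gave Dkk2 -0.013 and Apcdd1 -0.10, quantile normalization gave Dkk3 0.14 and Sfrp5 0.073, and scan day as a block gave Apcdd1 -0.078. In male arrays alone, an alternative chosen after seeing the data, Notum was 0.038 and Apcdd1 -0.091. Without the library labelled Control female 1 and Western male 1, also chosen after seeing the data, Notum was 0.024, Wif1 -0.051, Dkk2 -0.37 and Sfrp5 0.40. For the difference of the diet effects, quantile normalization gave Rnf43 0.018, Znrf3 0.69, Nkd1 0.24 and Wif1 0.20, slide as a random block gave Znrf3 0.012, scan day gave Axin2 0.024, Notum 0.019 and Dkk2 0.031, and leaving out both arrays gave Nkd1 0.69, Dkk2 0.21 and Sfrp5 -0.38.

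Leaving out 1 array at a time, the diet difference ranged from -0.10 to 0.59 for Axin2, -1.97 to 0.028 for Znrf3, -0.36 to 0.18 for Notum, -0.24 to 0.82 for Dkk2, -0.48 to 0.41 for Dkk3, -0.28 to 0.29 for Apcdd1 and -0.55 to 0.27 for Sfrp5. The sex difference ranged from -0.66 to 0.045 for Axin2 and -0.12 to 0.42 for Notum. The difference of the diet effects ranged from -1.06 to 0.33 for Axin2, -0.24 to 0.21 for Rnf43, -2.06 to 1.93 for Znrf3, -1.52 to 0.77 for Nkd1, -0.80 to 0.28 for Notum, -2.29 to 0.46 for Wif1, -1.32 to 0.80 for Dkk2, 0.19 to 1.98 for Dkk3, -0.38 to 0.76 for Apcdd1 and -0.65 to 0.99 for Sfrp5. Genes called numbered 0 for the diet throughout, 0 to 3 for sex and 0 to 2 for the difference, with the 3 and the 2 reached without the library labelled Control female 1, then with 1 array left in its group, assumed to vary like the other groups. Genes with an unadjusted p under 0.05 for the diet numbered 927 with all arrays, 3196 without that library, 591 without Western male 2, 519 in male arrays and 2743 with both arrays left out. For sex they numbered 824, and 367 without Western male 1 to 2753 without the library labelled Control female 1. For the difference of the diet effects they numbered 345, and 148 by normexp to 2155 without the library labelled Control female 1. The replicate block left the diet and sex estimates of the 10 genes as they were, with 0 calls. After it, 1036 genes had an unadjusted p under 0.05 for the diet. Dim signal limits Znrf3, Wif1 and Dkk2, which were well above background on 2, 4 and 2 of 8 arrays.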

Other observations

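Western male 1 exceeded the next highest array by more than 2 (log2) for 4 of the 21303 genes tested, a count made after its Wif1 value was seen. They were Myot, a sarcomere protein (-0.43, next array -5.11), Wif1 (-2.27, next -4.93), Wfdc18 (-0.80, next -3.29) and S100a9, a neutrophil calcium-binding protein (-2.54, next -4.89). The others among the highest 10 by that gap were, in order, Gcnt1 (1.59, next -0.39), Gpx5 (-1.91, next -3.88) and Zbtb16 (-2.29, next -4.10). Then came Saa2, an acute-phase protein (4.83, next 3.09), a sequence without a gene symbol (-2.79, next -4.49) and the mast cell protease Cpa3 (-3.25, next -4.92). The 5 tested leukocyte markers had a mean deviation of -0.051 on Western male 1. The same count was not made for the other arrays. The gap of Nkd1 was 0.73 and that of Dkk2 0.24.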
